A study of Mus musculus with 4 samples.

Results

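A set of 9 genes that make, take up or break down retinoic acid was followed in testes of mice lacking Lhcgr, the receptor for luteinizing hormone. The genes were taken as the probe sets whose single gene symbol in the platform annotation was Aldh1a1, Aldh1a2, Aldh1a3, Adh1, Rdh10, Dhrs3, Stra6, Cyp26a1 or Cyp26b1. All 9 were found, each with 1 probe set, among 19938 genes compared. The samples were total RNA from whole testes of male mice, 2 labelled Lhcgr KO and 2 labelled control WT. Mice of both genotypes had received busulfan, an alkylating drug that removes germ cells, at 44 mg/kg, and were killed 4 weeks later. No testis without busulfan was compared, and the sources used here give neither strain nor age nor the way the allele was made. Each RNA was labelled with biotin and hybridised to a 1-colour Affymetrix whole-transcript array.

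No label tells if the 2 replicates of a genotype were separate animals. The p-values therefore rest on the spread between these arrays, part of which may be technical. Values for Lhcgr are not analysed here, and the genotype labels were not checked against it. Array medians ran from 207.8 to 215.1 intensity units in the KO arrays and from 198.3 to 205.9 in the WT arrays. The lowest value on each array was just above 16, which is 4.00 on the log2 scale used below. No detection calls were used, and probe sets of different genes respond with different brightness, so levels are compared between arrays and not between genes. All 14 measured Sertoli cell markers lay at 8.24 log2 units or higher on each array, in a tissue where these cells remain after busulfan. In whole tissue, fewer cells of a type and less RNA per cell cannot be told apart. Markers of the epididymis and efferent ducts were high on 1 array, WT replicate 2, and results are given without it where it matters.

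Retinoic acid is made from retinol, vitamin A, in 2 steps. Alcohol and retinol dehydrogenases oxidise retinol to retinal, and retinaldehyde dehydrogenases of the Aldh1a family oxidise retinal to retinoic acid. Stra6 lets cells take up retinol from its plasma carrier, Dhrs3 reduces retinal back to retinol, and the Cyp26 enzymes hydroxylate and so inactivate retinoic acid. In the mouse testis, retinoic acid drives spermatogonia to differentiate and to enter meiosis. There Aldh1a1 is known from Sertoli cells and Aldh1a2 from meiotic germ cells.

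The sequence before the start of transcription in RefSeq is shown for the pair of genes that fell, and for Aldh1a1, the paralog of Aldh1a2 whose change was small and which has a pair of such starts, both shown. The sequences come from RefSeq on GRCm38.p6 and were matched by symbol, which gave 13 windows of 300 bases for 7 of the 9 genes. Aldh1a3 and Rdh10 had none. All stretches are on the plus strand and run over 250 bases, at chr9:71215539-71215788 for Aldh1a2, chr3:138277335-138277584 for Adh1 and chr19:20492333-20492582 and chr19:20601718-20601967 for the first and the second start of Aldh1a1. Capitals mark a CCAAT box and, nearer the second start of Aldh1a1, a hexamer that reads GGGTCA on the other strand. A single hexamer of the forms named below was common, found in 43.7% of all windows and also in windows of Stra6 and Cyp26a1.
Aldh1a2: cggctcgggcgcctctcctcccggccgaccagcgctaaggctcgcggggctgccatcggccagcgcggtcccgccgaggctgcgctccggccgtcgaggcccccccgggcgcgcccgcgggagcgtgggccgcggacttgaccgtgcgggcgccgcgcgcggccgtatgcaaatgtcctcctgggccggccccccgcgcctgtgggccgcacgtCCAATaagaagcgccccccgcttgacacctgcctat
Adh1: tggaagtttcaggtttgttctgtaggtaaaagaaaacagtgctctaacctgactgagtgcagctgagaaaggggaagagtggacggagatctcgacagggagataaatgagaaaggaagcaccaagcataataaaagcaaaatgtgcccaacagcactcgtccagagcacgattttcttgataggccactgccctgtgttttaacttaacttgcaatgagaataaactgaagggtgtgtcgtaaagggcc
Aldh1a1, first start: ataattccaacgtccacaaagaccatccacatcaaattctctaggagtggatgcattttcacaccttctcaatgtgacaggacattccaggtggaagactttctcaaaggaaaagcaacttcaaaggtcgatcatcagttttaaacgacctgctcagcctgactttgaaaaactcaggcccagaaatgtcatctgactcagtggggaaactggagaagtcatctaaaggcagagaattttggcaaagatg
Aldh1a1, second start: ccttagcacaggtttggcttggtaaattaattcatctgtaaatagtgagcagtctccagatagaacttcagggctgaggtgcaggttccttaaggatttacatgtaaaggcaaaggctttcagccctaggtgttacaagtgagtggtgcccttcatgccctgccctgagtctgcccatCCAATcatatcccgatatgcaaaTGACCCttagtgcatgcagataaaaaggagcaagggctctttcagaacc
The Aldh1a2 stretch had 77.6% G and C and 40 CG dinucleotides, the Adh1 stretch 44.8% and 5, and the Aldh1a1 stretches 42.8% and 3 at the first start and 46.4% and 1 at the second. The median over the 32851 windows of all genes was 52.7% G and C. The pair of genes that fell thus had start regions of unlike base composition.

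Each window was searched on both strands for the nuclear receptor hexamer AGGTCA, its variant AGTTCA, the form GGGTCA or the form GGTTCA as direct repeats with 5 or 2 bases between them, for AAGGTCA, the site of the steroidogenic factor Nr5a1, for TATAAA and for CCAAT. Of the members' windows, that of Cyp26a1 alone held a repeat with 5 bases between, the layout of the classic retinoic acid response element. It is shown because Cyp26a1 is known to be induced by retinoic acid itself. It lies 32 to 16 bases before the start, at chr19:37697770-37697798 on the plus strand with its flanks, and capitals mark the 2 hexamers, which read AGTTCA on the other strand.
Cyp26a1: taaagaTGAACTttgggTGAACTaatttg
Such a repeat was present in 32 of 32851 windows, or 0.0974%. The repeat with 2 bases between was in no member window and in 0.268% of all windows. AAGGTCA, which can overlap these repeats, was in no member window and in 4.72% of all windows. CCAAT stood in windows of Aldh1a2, Aldh1a1, Dhrs3 and Stra6 and in 37.4% of all windows. TATAAA stood in windows of Cyp26a1 and Cyp26b1 and in 13.6% of all windows. Counted from the start, it lay at bases 29 to 34, after the start, in Cyp26a1 and at -139 to -134 in Cyp26b1. A match is a run of letters and no measured binding site.

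The comparison asked how gene expression differed between KO and WT testes depleted of germ cells. Of the 9 genes, 2 fell in the KO testes, the retinaldehyde dehydrogenase Aldh1a2 and the alcohol dehydrogenase Adh1. The other 7 missed the threshold and none of them rose (limma, Benjamini-Hochberg adjusted p under 0.05 over all genes). Of all 19938 genes, 3.10% passed, made up of 2.14% lower and 0.963% higher in the KO. The median log2 fold change, KO over WT, was 0.05 for the 9 genes and 0.07 for all genes. Both KO arrays lay below both WT arrays in 3 of the 9 genes, against 22.4% of all genes, and above them in 2, against 36.8%. Of the 7 genes that did not pass, Stra6, the retinol uptake protein, and the hydroxylase Cyp26b1 had the largest differences, both toward higher values in the KO, and were the 2 with an unadjusted p under 0.05, a mark that 22.7% of all genes met.

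**Figure D1:**
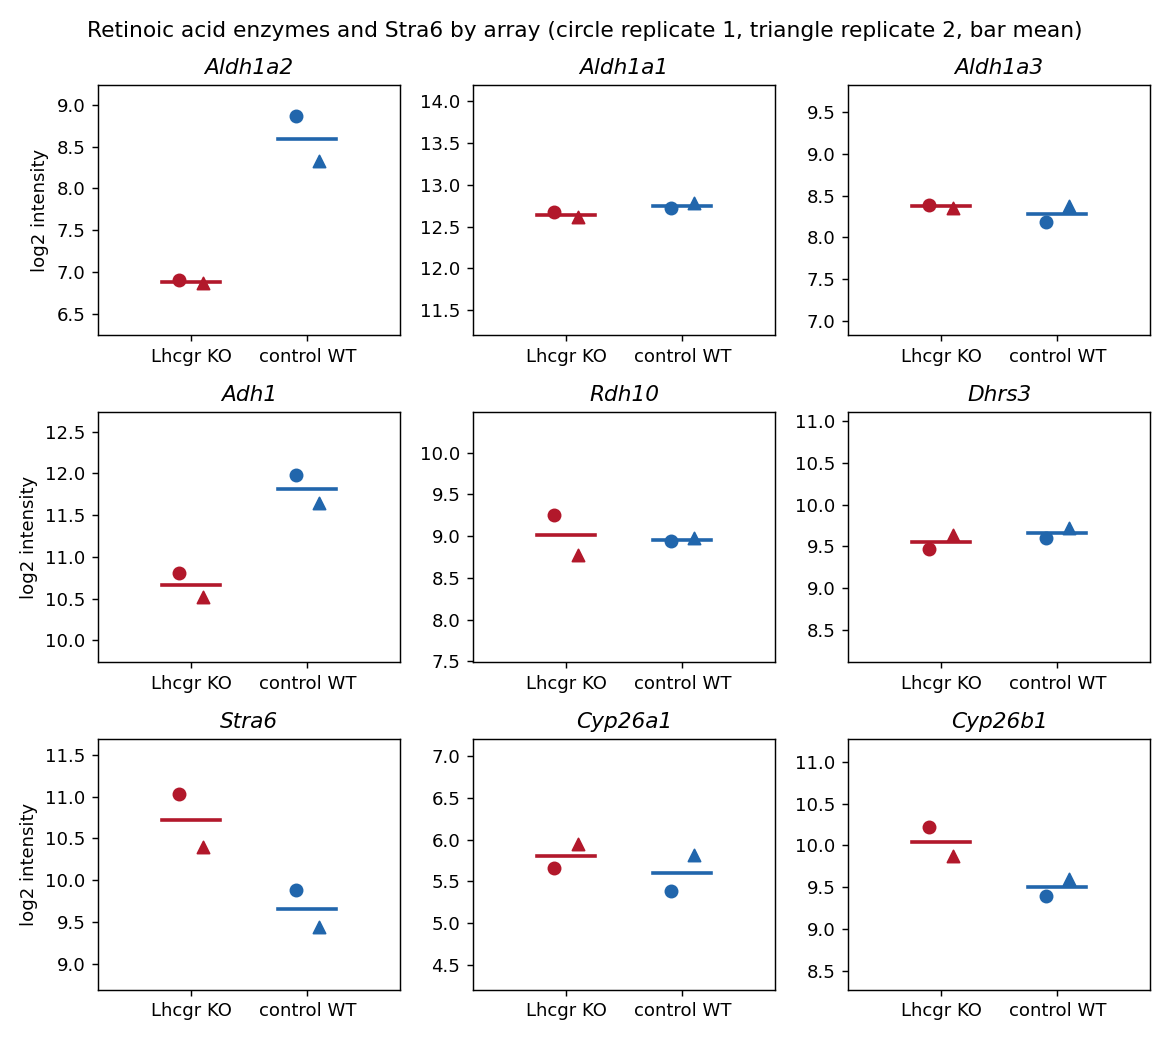
Log2 intensity of each gene on each array (y axis, 3 log2 units in each panel) in Lhcgr KO and control WT testes, with circles for replicate 1, triangles for replicate 2 and bars for the group mean. Aldh1a2 and Adh1 sit lower in the KO, Stra6 and Cyp26b1 have higher KO values without passing the test, and the arrays of Rdh10, Dhrs3, Aldh1a3 and Cyp26a1 overlap.

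Among the enzymes that form retinoic acid from retinal, Aldh1a2 (probe set 10586865) measured 6.90 and 6.87 log2 intensity units in the KO testes, against 8.87 and 8.33 in the WT testes. The KO values were nearly equal, the WT values were 0.54 apart, and the groups were separated by 1.43 log2 units. The means were 6.88 ± 0.022 in KO and 8.60 ± 0.38 in WT (SD, n = 2 each). Aldh1a2 was 3.28-fold lower in the KO, with a 95% confidence interval of 2.42 to 4.45, or -1.72 ± 0.18 on the log2 scale (SE, limma adjusted p = 0.00813). On the linear scale its KO intensities were 119.2 and 116.6 and its WT intensities 467.1 and 320.8. As these lie not far above the floor of 16, the fold may depend on how that floor arose, which the sources do not give. With 32 units added to the intensities the fold was -1.48 on the log2 scale. It did not pass without KO replicate 1 (adjusted p = 0.135) or without KO replicate 2 (0.142), settings in which 18 and 23 of all genes passed, while its log2 fold changes of -1.73 and -1.70 there were close to the full value. Without WT replicate 1 the log2 fold change was -1.44 and without WT replicate 2 it was -1.99, and both passed.

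Aldh1a1 (probe set 10461979), which makes retinoic acid in Sertoli cells, measured 12.67 and 12.61 log2 intensity units in the KO testes, against 12.72 and 12.78 in the WT testes. The groups did not overlap but were only 0.051 apart. Its log2 change, KO over WT, was -0.11 ± 0.11 (SE, limma adjusted p = 0.541), with a 95% confidence interval of -0.37 to 0.15. That interval leaves room for a fall to 0.771-fold or a rise to 1.11-fold, and ends well short of the change measured for Aldh1a2. Aldh1a7, a near copy of Aldh1a1 whose probes could share its signal, measured 10.00 and 10.39 in KO against 10.42 and 10.66 in WT, with a log2 fold change of -0.34 ± 0.17 (limma adjusted p = 0.264). Aldh1a3 (probe set 10564417), the remaining enzyme of the family, measured 8.39 and 8.36 in KO against 8.18 and 8.38 in WT. Its groups overlapped, and its log2 fold change was 0.09 ± 0.12 (limma adjusted p = 0.638, interval -0.19 to 0.38). Whether the 3 Aldh1a genes differ from each other in their change was not tested directly.

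Among the enzymes between retinol and retinal, Adh1 (probe set 10496438), a cytosolic alcohol dehydrogenase that also clears excess retinol, measured 10.80 and 10.52 log2 intensity units in the KO testes, against 11.98 and 11.64 in the WT testes. The groups were 0.84 log2 units apart, more than the 0.29 between the KO arrays or the 0.33 between the WT arrays. Adh1 was 2.22-fold lower in the KO, with a 95% confidence interval of 1.70 to 2.90, or -1.15 ± 0.16 on the log2 scale (SE, limma adjusted p = 0.0190). It did not pass without KO replicate 1 (log2 fold change -1.29, adjusted p = 0.132) or without KO replicate 2 (-1.01, 0.184). It passed without WT replicate 1 (-0.98, 0.0145) and without WT replicate 2 (-1.32, 0.00466). Its intensities of 1466 to 1787 in KO and 3198 to 4027 in WT lie far above the floor, and with a further 32 units added the log2 fold change was -1.13.

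Rdh10 (probe set 10344952), the membrane-bound retinol dehydrogenase that embryos need for retinoic acid synthesis, measured 9.25 and 8.78 log2 intensity units in KO against 8.94 and 8.98 in WT. Both WT values lay between the KO values. The log2 fold change was 0.05 ± 0.17 (SE, limma adjusted p = 0.855, interval -0.35 to 0.46), and its sign turned without KO replicate 1 (-0.18) and when each array was centred on its median (-0.012). Dhrs3 (probe set 10510129), the retinal reductase that works with Rdh10 in the opposite direction, measured 9.47 and 9.64 in KO against 9.60 and 9.72 in WT. Its groups overlapped, with a log2 fold change of -0.11 ± 0.12 (limma adjusted p = 0.582, interval -0.40 to 0.18). Within this step a difference past the test was thus measured for Adh1 only, and that Adh1 differs from Rdh10 or Dhrs3 in its change was not tested directly.

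**Figure D2:**
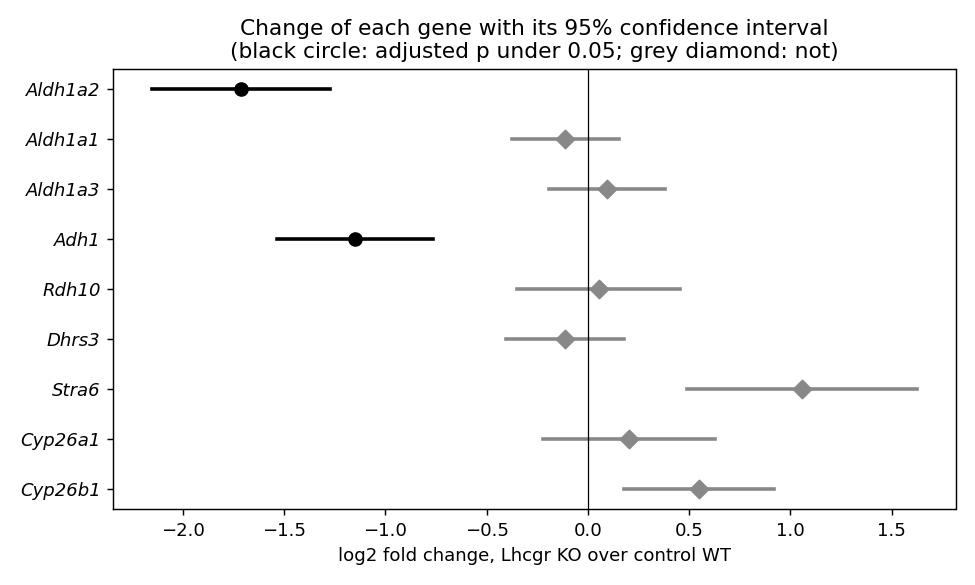
Log2 fold change, Lhcgr KO over control WT (x axis), of each gene, with its 95% confidence interval from limma (lines, n = 2 arrays per group). Black circles mark Aldh1a2 at -1.72 and Adh1 at -1.15, which passed the test over all genes, and grey diamonds the 7 genes that did not, with Stra6 farthest to the right at 1.06.

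Stra6 (probe set 10585803) measured 11.03 and 10.40 log2 intensity units in the KO testes, against 9.88 and 9.44 in the WT testes. Both KO values were higher, the groups were 0.52 apart, and the 2 KO arrays differed from each other by 0.63. The log2 fold change was 1.06 ± 0.24 (SE), a 2.08-fold higher mean in the KO with an interval of 1.40 to 3.09, but it did not pass over all genes (limma adjusted p = 0.0742). It passed with the replicate number as a block (adjusted p = 0.0159), a number not taken as a pairing. It also passed without WT replicate 1, where the log2 fold change was 1.28. The only WT array left there is replicate 2, the one with high epididymal markers. Stra6 did not pass without WT replicate 2 (0.84), without KO replicate 1 (0.74) or without KO replicate 2 (1.38). Its sign was positive under all 14 alternatives run, most of which could not have turned it. The groups did not overlap, so leaving out 1 array keeps the sign, and filters or priors leave the value unchanged.

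Of the hydroxylases that break retinoic acid down, Cyp26b1 (probe set 10545771), known from peritubular cells and from the fetal testis where it keeps germ cells out of meiosis, measured 10.22 and 9.87 log2 intensity units in KO against 9.40 and 9.60 in WT. The groups did not overlap and were 0.27 apart, less than the 0.35 between the KO arrays. The log2 fold change was 0.55 ± 0.15 (SE, limma adjusted p = 0.121), and it ranged from 0.37 to 0.73 over 14 alternatives without passing in any. Cyp26a1 (probe set 10462853), whose start region holds the repeat shown above, measured 5.66 and 5.95 in KO against 5.39 and 5.81 in WT. The groups overlapped, with a log2 fold change of 0.20 ± 0.18 (limma adjusted p = 0.488, interval -0.22 to 0.63). Its linear intensities of 50.6 and 61.8 in KO and 41.9 and 56.3 in WT were near the floor, where a change may be understated. With a further 32 units added its log2 fold change was 0.12.

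**Figure D3:**
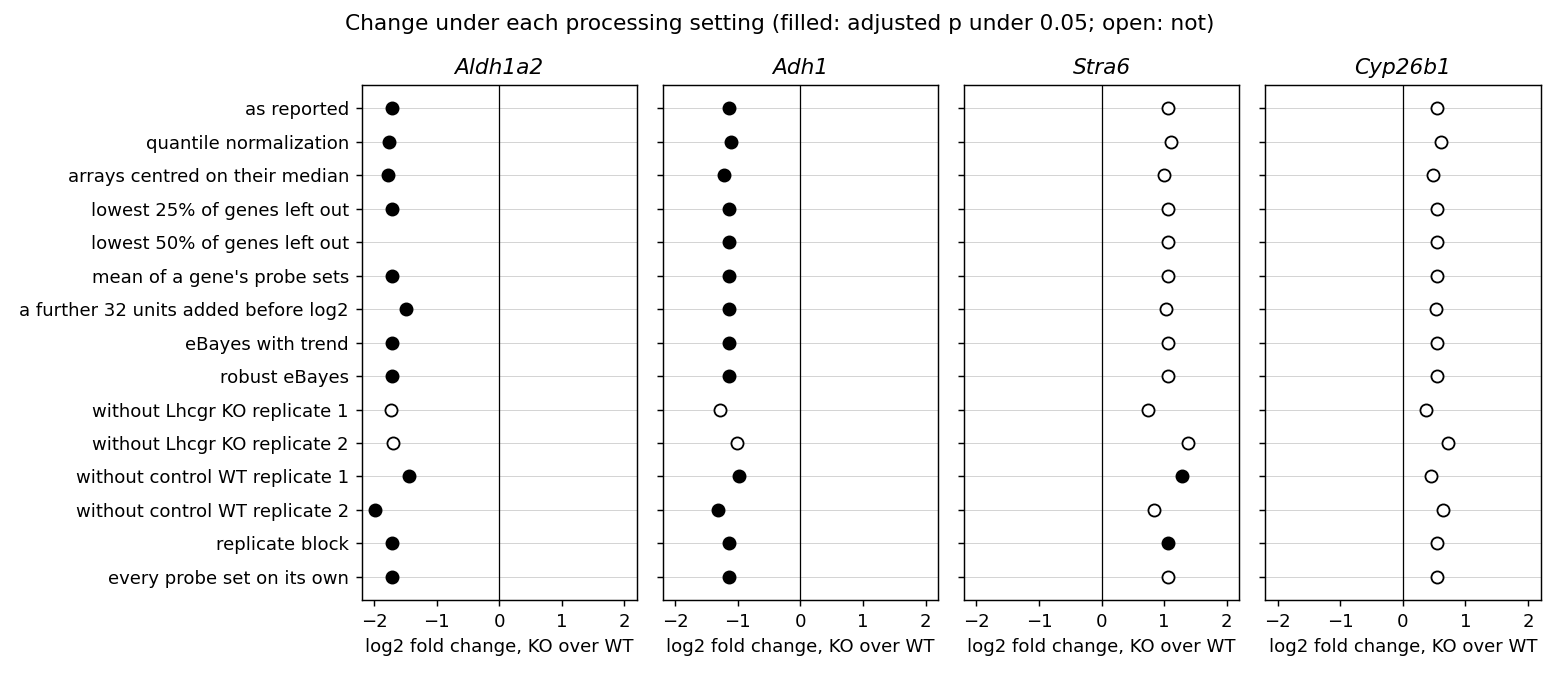
Log2 fold change, Lhcgr KO over control WT (x axis), of Aldh1a2, Adh1, Stra6 and Cyp26b1 under each processing setting (rows), filled where the adjusted p was under 0.05. Aldh1a2 and Adh1 lose the call when a KO array is left out, with values between -1.73 and -1.01 there, and Stra6 gains it without WT replicate 1 and with the replicate number as a block. Aldh1a2 has no point with the lowest 50% of genes left out, since it is among them.

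The genes whose pattern over the 4 arrays was most like that of each fallen enzyme were found by the root mean square difference of log2 values, each gene centred on its own mean. For Aldh1a2 these were Adam23, a membrane protein of the disintegrin family, at 0.101 log2 units, the orphan receptor Adgrg7 at 0.105 and Mrap, the accessory protein of the corticotropin receptor, at 0.113. Mrap measured 6.45 and 6.30 in KO against 8.13 and 7.86 in WT, and so was low on both KO arrays and highest on WT replicate 1, as Aldh1a2 was. For Adh1 they were Gdpd1, a glycerophosphodiester phosphodiesterase, at 0.022, the protease inhibitor Serpina5 at 0.041 and the opsin Opn3 at 0.041. Serpina5 measured 11.17 and 10.78 in KO against 12.28 and 11.98 in WT. These 6 genes were picked for their likeness, so that they fell too is no separate result.

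Beyond the 9 genes, 55 of 61 listed symbols of the retinoid pathway were measured, and 1 of them passed the test. That was Fabp5, a fatty acid binding protein that can also carry retinoic acid to the nucleus, which fell. It measured 8.79 and 9.24 log2 intensity units in KO against 9.98 and 10.02 in WT, and changed by -0.99 ± 0.17 on the log2 scale (SE, limma adjusted p = 0.0317). It did not pass after quantile normalization (-0.93, adjusted p = 0.0523), without KO replicate 1 (-0.76, 0.160) or without KO replicate 2 (-1.22, 0.0899). None of the 55 rose (limma). At an unadjusted p under 0.05, 8 had higher and 7 lower KO values, or 14.5% and 12.7%, against 12.9% and 9.78% of all genes. Their median log2 fold change was 0.11, against 0.07 for all genes. Both KO arrays lay above both WT arrays in 21 of them, or 38.2%, and below in 12, or 21.8%, both near the 36.8% and 22.4% of all genes.

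Of 12 carriers, binding proteins and storage enzymes, Fabp5 alone passed, with a list median of 0.17. At an unadjusted p under 0.05, 2 of the 12 had higher and 4 lower KO values. These are 16.7% and 33.3%, against 12.9% and 9.78% of all genes. Of 21 other retinol and retinal oxidoreductases none passed in limma, 4 had an unadjusted p under 0.05, or 19% against the 22.7% of all genes, and the median was 0.10. The lowest p-values there belonged to Adh5, a class III alcohol dehydrogenase, at -0.58 ± 0.12 (limma adjusted p = 0.0576) and to the photoreceptor enzyme Rdh8 at 0.44 ± 0.11 (0.0932). None of 5 further aldehyde dehydrogenases and hydroxylases passed, 1 had an unadjusted p under 0.05, the median was -0.25, and Aldh8a1 had the lowest p (0.41 ± 0.11, limma adjusted p = 0.116). Of 6 measured receptors of retinoic acid and its isomers none passed and 0 had an unadjusted p under 0.05, with a median of 0.03. Rara, the main receptor in Sertoli cells, measured 10.15 and 10.01 in KO against 10.24 and 10.23 in WT (-0.16 ± 0.11, limma adjusted p = 0.412), and Rxrg had a log2 fold change of 0.23 ± 0.11 (0.267).

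Genes known to respond to retinoic acid were counted as a readout. Of 14 measured, none passed in limma. At an unadjusted p under 0.05 there were 2 higher and 3 lower in the KO, or 14.3% and 21.4%, against 12.9% and 9.78% of all genes. Of the 14, 10 had a positive log2 fold change, or 71.4% against 60.6% of all genes, and the median was 0.17. The lowest p-values belonged to Bhlhe40, a transcription factor once isolated as a retinoic acid-induced gene, at -0.54 ± 0.13 (limma adjusted p = 0.0941) and to Lrat, which stores retinol as esters, at -0.35 ± 0.11 (0.151). Lrat measured 6.64 and 6.73 in KO against 7.03 and 7.04 in WT. Kit measured 9.51 and 9.11 in KO against 9.43 and 8.10 in WT, so its value depended on the WT array. Its log2 fold change was 1.20 without WT replicate 1 and -0.13 without WT replicate 2. Some of these genes are known from germ cells, such as the meiotic gatekeeper Stra8, and busulfan removes those cells from both genotypes. A change of retinoic acid itself was not measured.

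**Figure D4:**
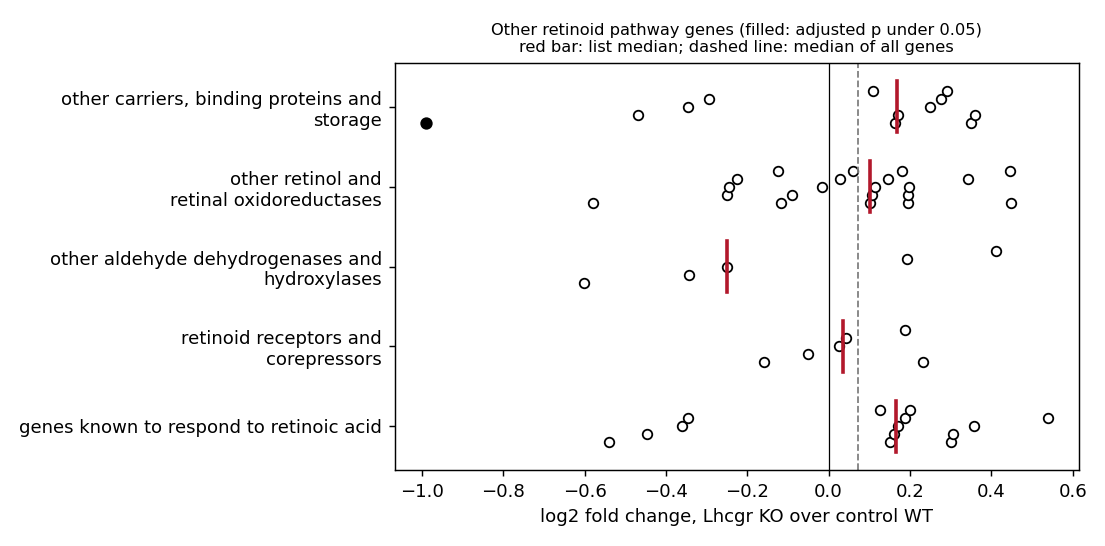
Log2 fold change, Lhcgr KO over control WT (x axis), of the 55 other retinoid pathway genes by list (rows; a gene in 2 lists is drawn in both), with red bars for list medians and a dashed line for the median of all genes at 0.07. Fabp5 at -0.99 is the only filled point, past the adjusted threshold, and the medians of the 5 lists lie between -0.25 and 0.17.

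Markers of other cell types moved with some of these values. Of 12 adult Leydig cell markers 6 fell and none rose, where 2.14% of all genes fell, with a median log2 fold change of -1.61. At an unadjusted p under 0.05 there were 10 lower, or 83.3% against 9.78% of all genes, and 0 higher. The count that fell was 2 with either KO array left out, 9 without WT replicate 2 and 4 with a robust prior or with the lowest 50% of genes left out. With the lowest 50% left out only 9 of the 12 were tested, and Sult1e1 and Ces1d were not among them. With the replicate number as a block 8 fell. The median of these markers was -1.01 without WT replicate 1 and -2.09 without WT replicate 2. Their summed intensity was 7823 and 7197 in the KO arrays, against 29901 and 18281 in the WT arrays, so it was lower in KO and, within WT, higher on replicate 1. Relative to its mean over the 4 arrays, that sum stood at -0.76 and -0.88 log2 units in KO and at 1.17 and 0.46 in WT. Aldh1a2 stood at -0.84 and -0.87 in KO and at 1.13 and 0.59 in WT, and Adh1 at -0.43 and -0.72 in KO and at 0.74 and 0.41 in WT. The order of the WT arrays was the same in all 3, an order found in 57.8% of all genes. The largest falls among these markers were those of Hsd3b6, an enzyme of testosterone synthesis, at -6.81 ± 0.19 (limma adjusted p = 0.000119), and of Sult1e1, Ptgds and Ces1d, at -4.90 ± 0.81, -4.49 ± 0.58 and -4.01 ± 0.23 (limma adjusted p = 0.0310, 0.0147 and 0.00127). Sult1e1 was at -3.49 without WT replicate 1 and -6.30 without WT replicate 2, and Ptgds at -3.46 and -5.53. Both lost the call with either KO array left out and with a robust prior. These 4 genes come near the floor in KO, where a fall may be understated. With a further 32 units added, Hsd3b6 was at -6.02, Sult1e1 at -3.79, Ptgds at -3.90 and Ces1d at -3.38. Their part in the changes of Aldh1a2 and Adh1 was not tested.

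Of 10 macrophage markers all 10 were lower in KO at an unadjusted p under 0.05, or 100% against 9.78% of all genes. Their median was -0.85, with sums of 4744 and 4984 in KO against 8212 and 10338 in WT. Past the adjusted threshold 4 fell and 0 rose, where 2.14% of all genes fell. The count was 0 with either KO array left out and 8 without WT replicate 1, and the median -0.97 without WT replicate 1 and -0.59 without WT replicate 2. Their order within WT was the reverse of that of Aldh1a2 and Adh1, with all 10 markers higher on WT replicate 2. Of 14 markers of spermatocytes and spermatids, cells in which Aldh1a2 is known, none passed in limma and 3 had an unadjusted p under 0.05, with a median of 0.10, and sums of 1499 and 1626 in KO against 1979 and 1377 in WT. All 14 were higher on WT replicate 1 than on replicate 2, by a median of 0.34, an order found in 57.8% of all genes. Sertoli markers summed to 34421 and 34626 in KO against 34852 and 32898 in WT. Of these 14 markers Amh rose (0.80 ± 0.14, limma adjusted p = 0.0398) and Trf fell (-2.29 ± 0.24, limma adjusted p = 0.00746). Amh lost the call with the replicate number as a block (adjusted p = 0.0631) and without WT replicate 1 (0.0628), and both genes lost it with either KO array left out. Both KO arrays lay above both WT arrays in 8 of the 14, or 57.1%, against 36.8% of all genes. Epididymal markers summed to 1455 and 1520 in KO, and to 1430 and 6463 in WT. Of the 15 measured, 6 were over 1 log2 unit higher on WT replicate 2 than on each other array, against 0.617% of all genes and 0 of the 9 retinoic acid genes, a number too small to read against that share. Aldh1a2 and Adh1 were both called without that array, and the part of the other cell types in the values was not tested.

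**Figure D5:**
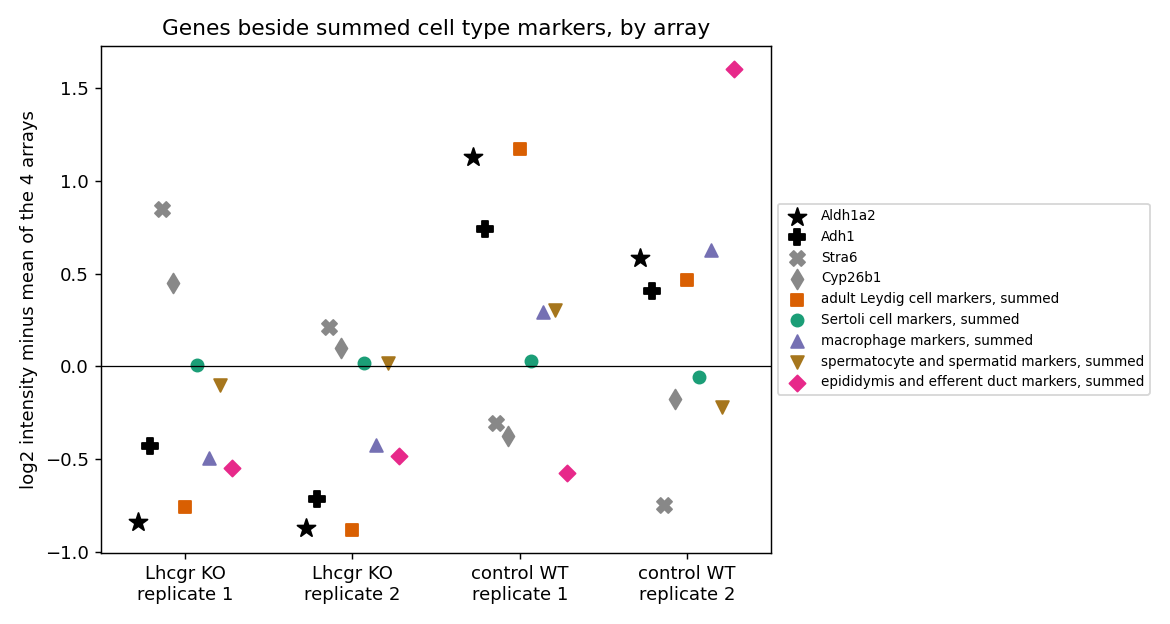
Log2 intensity minus the mean of the 4 arrays (y axis) of 4 genes and of the summed intensity of 5 marker lists, by array (x axis, each point 1 array). Aldh1a2 and Adh1 lie below 0 on both KO arrays and above 0 on both WT arrays, with WT replicate 1 higher, as adult Leydig cell markers do, while the epididymal markers stand at 1.60 on WT replicate 2 alone. WT replicate 1 was the higher WT array in 57.8% of all genes.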

How the data were processed

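Total RNA of testes from 2 Lhcgr KO and 2 control WT samples was measured on 1-colour Affymetrix whole-transcript arrays, per the labels' protocols. The deposited table holds 1 linear intensity per probe set and array. The sources used here do not give its summarization, background correction or normalization. The submitters' processing notes name the build mm9. Since each array's lowest intensity is just above 16, folds of weak genes may be understated.

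Of 28856 probe sets, 21789 have 1 gene symbol, 1621 several and 5446 none listed. Those with 1 symbol gave 19938 genes, with the highest-mean probe set used for 999 genes that have several. By Entrez number 21698 matched RefSeq and 0 symbols changed. Log2 intensities were compared with limma 3.58.1 in R 4.3.3 (lmFit, eBayes, no covariates), KO over WT, two-sided, with Benjamini-Hochberg adjustment over the 19938 genes and a threshold of 0.05. The prior had 4.65 degrees of freedom beside 2 residual ones. The method was tested on simulated data. The number of arrays limits the precision.

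The 9 genes, the lists of pathway and marker genes and the tests were chosen with earlier results of these data known, and lists are described by counts and medians, with no set test. Named were all 9 genes and Aldh1a7, in each list up to 4 genes past the threshold with the largest change or else the 2 with the lowest p, and the 3 genes most like each fallen member. Values of Kit and Adam7 are given outside that rule. Alternatives were quantile normalization, median centring, leaving out the lowest 25% or 50% of genes, averaging probe sets, testing each probe set, adding 32 units, eBayes with trend or a robust prior, leaving out each array and the replicate number as a block.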

Additional observations from a re-analysis of the deposited data

How the results depend on the processing

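Over the alternatives, Aldh1a2 and Adh1 stayed lower and Stra6 and Cyp26b1 higher in KO wherever they were tested, with log2 fold changes of -1.99 to -1.44, -1.32 to -0.98, 0.74 to 1.38 and 0.37 to 0.73. Their groups did not overlap, so leaving out 1 array could not turn these signs, and filters or priors leave the values unchanged. Without each array in turn, 18 to 1039 genes were called, against 618 with all arrays, among them 0 to 3 of the 9 genes, against 2, and 0 to 2 other retinoid genes, against 1. The lowest counts came without KO replicate 1 (18 genes) or KO replicate 2 (23 genes), with 0 of the 9 called, and the highest without WT replicate 1, where Stra6 joined. With 1 array left in a group, it is assumed to vary like the other group. With the lowest 50% of genes left out, 1 of the 9 was called, as Aldh1a2 and Cyp26a1 were not tested. Cyp26a1 was not tested with the lowest 25% left out either. Other retinoid genes called numbered 0 after quantile normalization and 2 after median centring, with the lowest 25% or 50% left out, with 32 units added, and with a trended or robust prior. Adh5 joined Fabp5 there, and the cause was not tested. Signs of genes that were not called turned for Rdh10 with median centring (-0.012) and without KO replicate 1. They also turned without WT replicate 1 for Aldh1a3 and Cyp26a1. With each array left out, Rdh10 ranged from -0.18 to 0.29, Aldh1a3 from -0.0026 to 0.19 and Cyp26a1 from -0.0085 to 0.42. With the replicate number as a block, 572 genes, 3 of the 9 (Stra6 added) and 1 other retinoid gene were called. Same-numbered samples did not vary together (r = 0.02 across genes, which are not independent), so the number was not taken as a pairing.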

Other observations

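In the cell type lists not described above no marker passed the test, and named genes of the other lists are added here. None of 8 peritubular myoid markers passed in limma (median log2 fold change -0.03), and at an unadjusted p under 0.05 there were 3 higher and 3 lower, 75% in all against 22.7% of all genes. The lowest p-values belonged to Actg2, a smooth muscle actin, at -0.60 ± 0.13 (SE, limma adjusted p = 0.0693) and to Myh11, smooth muscle myosin, at 0.67 ± 0.17 (0.0971). Actg2 passed after quantile normalization, with median centring, with the lowest 50% of genes left out and with a robust prior (limma adjusted p between 0.0375 and 0.0496). None of 7 endothelial markers passed, and 2 had an unadjusted p under 0.05 (median -0.02), with Cdh5 at 0.56 ± 0.16 (limma adjusted p = 0.117) and the VEGF receptor Kdr at -0.81 ± 0.24 (0.128). None of 11 spermatogonial markers passed, and 3 had an unadjusted p under 0.05 (median 0.12), with Id4 at -0.47 ± 0.12 (limma adjusted p = 0.101) and the RNA-binding Dazl at 0.36 ± 0.12 (0.161). Of the spermatocyte and spermatid markers, Spaca1 at -0.69 ± 0.17 (limma adjusted p = 0.0893) and Acrv1 at 0.29 ± 0.12 (0.212), both acrosomal, had the lowest p-values. The macrophage markers that fell were Lyz2, lysozyme, at -1.55 ± 0.18, the growth factor receptor Csf1r at -1.02 ± 0.13, the lysosomal Cd68 at -0.95 ± 0.11 and the complement gene C1qb at -0.85 ± 0.12 (limma adjusted p between 0.0109 and 0.0203), and all 4 lost the call with either KO array left out. Of the epididymal list Epcam, an epithelial adhesion molecule, fell (-2.06 ± 0.40, limma adjusted p = 0.0484), with 6.37 and 6.37 log2 intensity units in KO against 7.73 and 9.12 in WT. Without WT replicate 2, the array with high epididymal markers, it was at -1.36 (limma adjusted p = 0.00201), and without WT replicate 1 at -2.75. It lost the call with 32 units added (0.0545), with a robust prior (0.209) and with either KO array left out. Without WT replicate 1, replicate 2 is the only WT array, so values of the epididymal markers there rest on its high signal. Adam7, for example, was at -5.24 there and at -0.073 without WT replicate 2.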
